A study of Homo sapiens with 12 samples.

Results

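Caveolae are small flask-shaped pits of the plasma membrane, and 7 genes that encode their coat and neck proteins were followed here in Ewing sarcoma cells with and without induced AP-1. The genes, taken by name, were CAV1, CAV2, CAVIN1 (also PTRF), CAVIN2 (SDPR), CAVIN3 (PRKCDBP), EHD2 and PACSIN2, which are 7 of the 58721 genes in the count table. All are protein-coding in RefSeq. Of the 7 genes, 6 passed the filter on low counts and were tested among 21013 genes, and CAVIN3 was not. RNA-seq had been performed on EW8 and TC71, established Ewing sarcoma cell lines, after 72 h with doxycycline at 2000 ng/ml or with the vehicle. All 4 groups carried the same lentiviral parts, a Tet-On 3G activator driven by the human EF1 alpha promoter and a TRE3G cassette from which c-Jun and c-Fos are made from 1 message through a self-cleaving peptide. The groups labelled wild type are therefore uninduced cells of the engineered lines. Cells were selected with geneticin and puromycin, and the methods name no isolation of single clones. Each group held 3 libraries, and nothing in the labels says that they came from separate cultures, so p-values measure the spread between these libraries, which may be technical. No doxycycline-treated library without the transgenes was used here, and effects of the drug and of the transgenes cannot be told apart.

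Caveolin-1, the product of CAV1, inserts into the inner leaflet of the membrane, oligomerises and binds cholesterol. Caveolin-2 joins it in hetero-oligomers, and caveolin-1 without a cavin stays in flat membrane. Cavin-1 is the obligate coat protein that turns caveolin-rich membrane into pits, while cavin-2 and cavin-3 join the coat through cavin-1 in a tissue-dependent way. EHD2, an ATPase, sits at the neck and holds caveolae at the surface, and PACSIN2 is an F-BAR protein that bends membrane there. Caveolae are plentiful in endothelial, fat and muscle cells, where they flatten under tension and gather signalling receptors.

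The libraries held between 42860665 and 60853649 counts. Replicates of a group differed by an SD of 0.183 to 0.245 on the log2 CPM scale (CPM, read counts scaled to a common library size), except pairs with TC71 vehicle replicate 1, at 0.376 and 0.389. JUN averaged 21.59 CPM under vehicle and 473.7 with doxycycline in EW8, against 20.74 and 755.5 in TC71. FOS averaged 36.76 and 1078 CPM in EW8 and 11.67 and 1580 in TC71. Reads of the transgenes and of the endogenous genes were counted together. All 8 Ewing sarcoma markers checked, among them CD99 and NKX2-2, were above the floor of 6 counts in every group, and their summed level lay between 2192 and 2817 CPM. PAX7 and LIPI were called lower in EW8, and PAX7 in TC71, against 3.38% and 3.67% of all genes. CCND1 and CD99 made up most of the sum, and CD99 rose by 0.62 and 0.44 on the log2 scale. The median log2 fold change of the 8 markers was -0.62 in EW8 and -0.33 in TC71, against -0.03 and 0.00 over all genes.

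RefSeq promoter windows (GRCh38.p14, 250 bases before to 50 after a start) were given for 5 of the 7 genes, CAV1, CAV2, CAVIN2, EHD2 and PACSIN2, and were not given for CAVIN1 and CAVIN3. The 5 sequences that follow are the 250 bases before a start, shown because these genes gave 3 different patterns: EHD2 was called in both lines, CAV1, CAV2 and PACSIN2 moved by less than the fold limit, and CAVIN2 was near 0 in 1 line only. Capitals mark CpG dinucleotides.
EHD2, chr19:47713172-47713421, plus strand: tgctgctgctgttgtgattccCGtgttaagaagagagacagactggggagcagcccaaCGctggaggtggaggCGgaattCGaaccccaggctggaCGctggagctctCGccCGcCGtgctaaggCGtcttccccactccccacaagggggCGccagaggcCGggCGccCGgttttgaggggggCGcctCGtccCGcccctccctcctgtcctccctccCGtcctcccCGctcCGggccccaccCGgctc
CAV1, chr7:116524759-116525008, plus strand: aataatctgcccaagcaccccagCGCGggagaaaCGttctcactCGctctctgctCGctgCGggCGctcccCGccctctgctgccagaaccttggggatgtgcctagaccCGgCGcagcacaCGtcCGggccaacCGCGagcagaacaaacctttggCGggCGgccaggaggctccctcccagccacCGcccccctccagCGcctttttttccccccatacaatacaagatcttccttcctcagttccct
CAV2, chr7:116499488-116499737, plus strand: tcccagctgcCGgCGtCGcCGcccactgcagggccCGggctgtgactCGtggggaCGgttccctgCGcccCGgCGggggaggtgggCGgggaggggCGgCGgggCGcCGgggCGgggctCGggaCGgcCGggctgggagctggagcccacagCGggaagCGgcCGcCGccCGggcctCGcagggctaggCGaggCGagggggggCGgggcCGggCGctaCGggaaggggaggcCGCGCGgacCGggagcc
PACSIN2, chr22:43015150-43015399, minus strand: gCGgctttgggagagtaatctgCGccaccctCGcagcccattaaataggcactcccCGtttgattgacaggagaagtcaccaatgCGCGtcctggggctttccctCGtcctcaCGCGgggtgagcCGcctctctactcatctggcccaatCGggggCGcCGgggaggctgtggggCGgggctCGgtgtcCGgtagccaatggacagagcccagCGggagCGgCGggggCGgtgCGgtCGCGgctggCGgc
CAVIN2, chr2:191847089-191847338, minus strand: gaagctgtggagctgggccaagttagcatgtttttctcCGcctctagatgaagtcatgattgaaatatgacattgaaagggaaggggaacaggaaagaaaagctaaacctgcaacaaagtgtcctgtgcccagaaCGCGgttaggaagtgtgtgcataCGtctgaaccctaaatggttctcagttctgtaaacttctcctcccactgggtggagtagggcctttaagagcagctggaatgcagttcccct
The CAVIN2 stretch held 4 CpG and 48.0% GC, below the medians of 11 CpG and 58.0% GC over all 35116 windows. CpG numbered 18 before CAV1, 35 before CAV2, 20 before EHD2 and 24 before PACSIN2, all above the median. For PACSIN2 this holds for the start shown only. Its other windows, at other starts, held 3 to 7 CpG in 300 bases, below the median of 14 over all whole windows. The AP-1 motif TGANTCA, whose letters read the same on both strands with any base at N, and the CRE-type motif TGACGTCA, also palindromic, were searched in the 13 windows of these 5 genes. Neither was found in any of the 13. Of all windows, 7.71% held TGANTCA and 1.85% held TGACGTCA. The search says only that these letters are not in these windows.

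CAV1 was by far the most abundant transcript of the group, already without induction. The gene (ENSG00000105974.11) lies on the plus strand of chromosome 7 from 116524785 to 116561184 in hg38, with 4082 bases of exon. In EW8 its level was 3253, 3062 and 3093 CPM under vehicle and 3955, 3925 and 4119 CPM with doxycycline. In TC71 it was 1086, 1172 and 1177 CPM, and 1763, 1742 and 1722 CPM. The groups did not overlap in either line, and every TC71 library stayed below every EW8 library. Doxycycline raised CAV1 by a log2 fold change of 0.35 in EW8 (SE 0.04, adjusted p = 3.29e-06, edgeR) and of 0.61 in TC71 (SE 0.04, adjusted p = 2.05e-09). Both changes were below the fold limit of 1 on the log2 scale, so CAV1 was not called.

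CAV2, the gene of the partner caveolin, moved in opposite directions in the lines. It lies upstream of CAV1 (ENSG00000105971.14, 116287380 to 116508541, plus strand, 6926 bases of exon), and the span reaches so far because the annotation includes a start 212358 bases before the RefSeq start shown above. EW8 libraries had 423.2, 376.0 and 388.2 CPM under vehicle and 334.1, 330.3 and 329.9 CPM with doxycycline. TC71 libraries had 180.0, 210.9 and 186.6 CPM, and 232.8, 238.1 and 231.4 CPM. CAV2 fell in all 3 treated EW8 libraries and rose in all 3 treated TC71 libraries, again without overlap. The log2 fold change was -0.26 in EW8 (SE 0.06, adjusted p = 0.00183) and 0.28 in TC71 (SE 0.06, adjusted p = 0.000777). Without TC71 vehicle replicate 1 the TC71 rise was 0.16 (adjusted p = 0.0231). The difference of these responses, 0.54 (SE 0.08), passed the test of the difference itself (adjusted p = 0.000155).

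CAVIN1, which encodes the cavin needed for the coat, had the largest fold change of the 6 genes tested in both lines. The gene (ENSG00000177469.12) lies on the minus strand of chromosome 17 from 42402452 to 42423517 and shares no exon base with another gene. In EW8 it rose from 19.49, 19.53 and 18.83 CPM to 246.4, 233.0 and 223.8 CPM. In TC71 it rose from 18.04, 22.87 and 22.32 CPM to 510.6, 545.0 and 487.0 CPM. Vehicle libraries of the lines overlapped, and treated TC71 libraries all ended above treated EW8 libraries. The log2 fold change was 3.60 in EW8 (SE 0.08, adjusted p = 1.7e-16) and 4.61 in TC71 (SE 0.08, adjusted p = 7.21e-18), that is 12.2-fold and 24.4-fold.

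**Figure D1:**
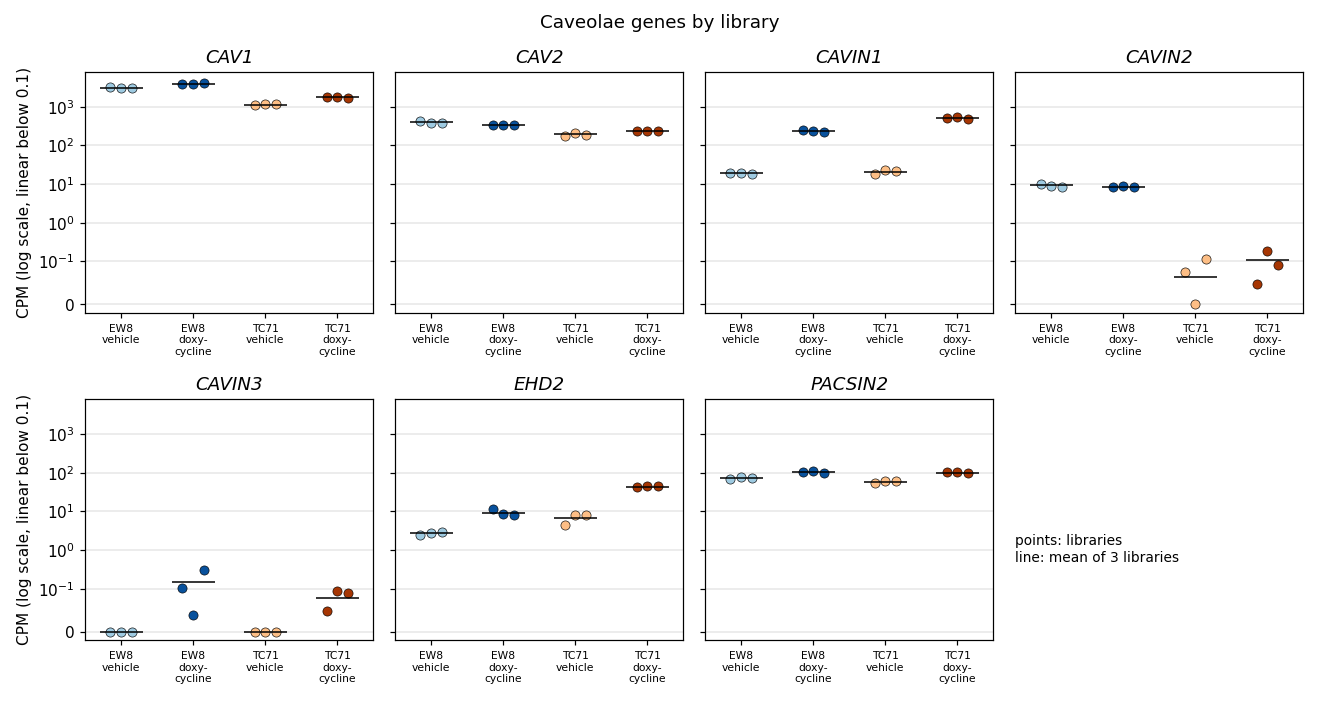
Level of each of the 7 genes by library, in CPM on a log scale that is linear below 0.1, with EW8 and TC71 under vehicle and with doxycycline along the x axis. Points are libraries and lines are means of 3. CAVIN1 went from at most 22.87 CPM under vehicle to at least 223.8 CPM in both lines, CAV1 stayed at 1086 CPM or above, and CAVIN2 separated the lines.

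CAVIN2, the gene of a cavin that shapes the coat, separated the lines, and no response passed the test. It lies on the minus strand of chromosome 2 from 191834302 to 191847255 (ENSG00000168497.4), and 7.22% of its exon bases are shared with the antisense gene CAVIN2-AS1, so that reads there were left out. EW8 libraries held 457, 414 and 479 counts under vehicle and 467, 454 and 375 with doxycycline. TC71 libraries held 4, 0 and 6 counts, and 2, 8 and 4 counts. All 3 TC71 vehicle libraries were thus at or under the floor of 6 counts, which is 3 read pairs. CAVIN2 was at least 80.0-fold higher in EW8 vehicle than in TC71 vehicle, with the floor taken as that of the TC71 vehicle library where 6 counts stand for the highest CPM. In EW8 the change with doxycycline was -0.11 on the log2 scale (SE 0.23, adjusted p = 0.747). In TC71 the test gave an adjusted p of 0.348, and no fold is given against a group at the floor.

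CAVIN3, whose cavin associates with caveolin-1 and cavin-1, was barely detected. It lies on the minus strand of chromosome 11 from 6318946 to 6320647 (ENSG00000170955.9), and 33.3% of its 1672 exon bases are shared with the antisense gene ENSG00000282556. Every vehicle library of both lines held 0 counts. Treated EW8 libraries held 6, 2 and 13 counts and treated TC71 libraries 2, 4 and 4. The mean of the treated EW8 libraries was 1.09-fold the floor, taken the same way, and only replicate 3, with 13 counts, was above 6 counts. In TC71 both groups were at the floor. With no filter on low counts the gene was called higher in EW8, on those few counts.

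EHD2, which holds caveolae at the surface, was low under vehicle and rose in both lines. The gene (ENSG00000024422.11) lies on the plus strand of chromosome 19 from 47713343 to 47743134. In EW8 it went from 2.481, 2.833 and 2.874 CPM to 11.24, 8.478 and 7.993 CPM. In TC71 it went from 4.373, 8.245 and 7.957 CPM to 41.60, 44.83 and 44.32 CPM. No library with doxycycline fell within the vehicle range of its line, and TC71 vehicle replicate 1, the library that stood apart, had the lowest value of its group. The log2 fold change was 1.76 in EW8 (SE 0.20, adjusted p = 7.99e-07) and 2.66 in TC71 (SE 0.18, adjusted p = 8.88e-10). Without TC71 vehicle replicate 1 the TC71 change was 2.35 (adjusted p = 3.99e-14).

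PACSIN2, the membrane-bending protein's gene, rose in both lines by less than the fold limit. It lies on the minus strand of chromosome 22 from 42835412 to 43015145 (ENSG00000100266.18), with 3.4% of its exon bases shared with ARFGAP3. EW8 libraries had 70.78, 75.38 and 74.67 CPM under vehicle and 103.2, 108.2 and 99.91 CPM with doxycycline. TC71 libraries had 54.30, 59.83 and 62.45 CPM, and 101.7, 104.9 and 96.17 CPM. Every treated library was above every vehicle library, and the treated lines overlapped. The log2 fold change was 0.50 in EW8 (SE 0.06, adjusted p = 4.54e-06) and 0.78 in TC71 (SE 0.06, adjusted p = 1.16e-08), neither past the fold limit.

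Counted together, 2 of the 6 genes tested, CAVIN1 and EHD2, were called higher in EW8 and the same 2 in TC71, by edgeR and by DESeq2. No gene was called lower by either tool, and at an unadjusted p under 0.05 edgeR gave 1 lower gene, CAV2, in EW8 and 0 in TC71. Over all genes tested, 11.4% were called higher in EW8 and 12.3% in TC71, and 3.38% and 3.67% were called lower. By adjusted p alone, without the fold limit, 4 genes rose and 1 fell in EW8, against 21.9% and 22.0% of all genes, and 5 rose in TC71, against 25.1%. The median log2 fold change of the 6 genes was 0.42 in EW8 and 0.81 in TC71, or 0.70 in TC71 with CAVIN2 set at its bound. The medians over all genes were -0.03 and 0.00. In bulk RNA a change in the share of expressing cells cannot be told apart from a change per cell.

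**Figure D2:**
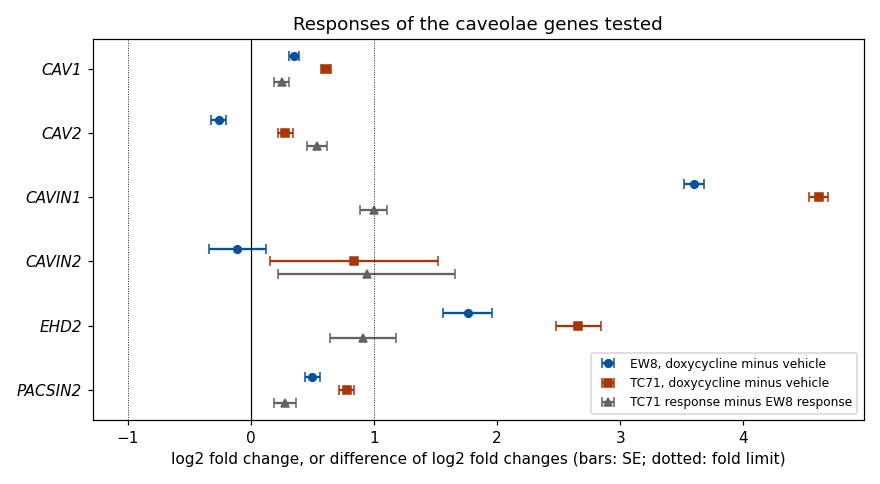
Log2 fold change with doxycycline for the 6 genes tested in EW8 (circles) and TC71 (squares), and the TC71 response minus the EW8 response (triangles), with SE bars and dotted lines at the fold limit. CAVIN1 and EHD2 lie past the limit in both lines, CAV2 lies on opposite sides of 0, and the CAVIN2 value in TC71 rests on a vehicle group at the floor.

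The responses of the lines were then compared by the difference itself, TC71 minus EW8. Of the 6 genes, 1 was called, CAVIN1, with a difference of 1.00 (SE 0.11, adjusted p = 1.76e-06), against 4.18% of all genes called higher and 2.87% lower. The fitted value lay just at the fold limit and ranged from 0.78, without TC71 vehicle replicate 1, to 1.07 over the alternatives, so the call by fold did not hold although the adjusted p stayed at or below 0.000139. By adjusted p alone 5 differences were above 0, against 12.2% of all genes. CAV2 kept its difference under all 19 alternatives, with adjusted p from 4.76e-08 to 0.00995. EHD2 differed by 0.91 (SE 0.27, adjusted p = 0.0219), which became 0.71 (adjusted p = 0.117) without EW8 doxycycline replicate 3, 0.74 (0.114) without its replicate 2, and 0.77 (0.107) and 0.88 (0.0518) without EW8 vehicle replicates 3 and 2. Without TC71 vehicle replicate 1 the EHD2 difference was 0.54 (adjusted p = 0.0307). CAV1 differed by 0.25 (SE 0.06, adjusted p = 0.00713), which became 0.09 (adjusted p = 0.189) without TC71 vehicle replicate 1 and lost the threshold under 8 of 19 alternatives. PACSIN2 differed by 0.28 (SE 0.09, adjusted p = 0.0359), and lost it under 16 of 19, with 0.10 (adjusted p = 0.449) without TC71 vehicle replicate 1. The CAV1, EHD2 and PACSIN2 differences thus did not hold up under every alternative.

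Under vehicle the caveolins and CAVIN2 were lower in TC71, and EHD2 was higher. TC71 was lower than EW8 by a log2 difference of -1.45 for CAV1 (SE 0.05, adjusted p = 7.18e-15) and -1.04 for CAV2 (SE 0.06, adjusted p = 4.42e-11). EHD2 was the gene called higher in TC71, by 1.33 (SE 0.20, adjusted p = 1.19e-05). With CAVIN2 this made 3 of 6 genes lower and 1 higher, against 18.9% and 11.6% of all genes. CAV2 sat close to the fold limit and was no longer called, at -0.88, without TC71 vehicle replicate 1, and at -0.95 or -0.99 without EW8 doxycycline replicate 1 or 2, EW8 vehicle replicate 1 or TC71 vehicle replicate 3. It was also not called, at -0.99, with at least 10 counts required in every library. CAVIN1 did not differ past the threshold (0.13, SE 0.08, adjusted p = 0.164), though without TC71 vehicle replicate 1 it was 0.34 (adjusted p = 3.72e-05), and without EW8 doxycycline replicate 1 or 2 it was 0.22 (0.0397 and 0.043). PACSIN2 differed by -0.32 (SE 0.06, adjusted p = 0.000264), or -0.16 (adjusted p = 0.033) without TC71 vehicle replicate 1.

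With doxycycline CAV1 remained lower in TC71 (-1.20, SE 0.04, adjusted p = 9.65e-14) and so did CAVIN2 (-6.26, SE 0.37, adjusted p = 4.53e-11, on 2 to 8 counts in TC71). CAVIN1 was higher in TC71 by 1.13 (SE 0.07, adjusted p = 1.52e-10) and EHD2 by 2.23 (SE 0.18, adjusted p = 4.17e-09). These made 2 genes higher and 2 lower, against 12.6% and 18.4% of all genes. CAV2 differed by -0.50 (SE 0.06, adjusted p = 8e-07), and PACSIN2 by -0.04 (SE 0.06, adjusted p = 0.609). The vehicle libraries enter both the line comparison and the responses, so these values are not independent of those above.

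To compare the genes with each other, levels were divided by exon length. In EW8 vehicle the mean was 768.3 CPM per kb for CAV1, 57.15 for CAV2, 16.16 for PACSIN2, 5.036 for CAVIN1, 2.884 for CAVIN2 and 0.6957 for EHD2. TC71 vehicle began with the same order, at 280.5 for CAV1, 27.79 for CAV2, 12.93 for PACSIN2 and 5.506 for CAVIN1, followed by EHD2 at 1.748. CAV1 thus made up 90.4% of the summed level of the 7 genes in EW8 and 85.4% in TC71, while CAVIN1 made up 0.592% and 1.68%. With doxycycline CAVIN1 was second in both lines, at 61.23 CPM per kb in EW8 and 134.3 in TC71. Its share became 5.48% and 21.4%, and that of CAV1 87.7% and 67.9%. CAVIN2 at 2.673 and EHD2 at 2.355 CPM per kb were neighbours in treated EW8 whose libraries overlapped. No other neighbours among the genes above the floor overlapped in any group.

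The balance of caveolin to cavin transcripts moved in both lines. CAV1 over CAVIN1, per length, was 157, 147 and 154 in the EW8 vehicle libraries and 15.1, 15.8 and 17.3 with doxycycline. In TC71 it was 56.4, 48.1 and 49.4, and 3.24, 3.00 and 3.32. All treated libraries lay below all vehicle libraries, and each group was separate from the other 3. CAV1 over CAV2 rose from 13.5 ± 0.39 to 20.5 ± 0.62 in EW8 and from 10.1 ± 0.64 to 12.6 ± 0.21 in TC71 (SD, n = 3 each). CAVIN2 over CAVIN1 went from 0.572 ± 0.048 to 0.0437 ± 0.0031 in EW8. CAVIN1 over EHD2 was 7.28 ± 0.69 and 26.4 ± 3.5 in EW8, and 3.32 ± 0.79 and 12.1 ± 0.73 in TC71. These ratios are descriptions, were not tested, and count transcripts, not proteins.

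**Figure D3:**
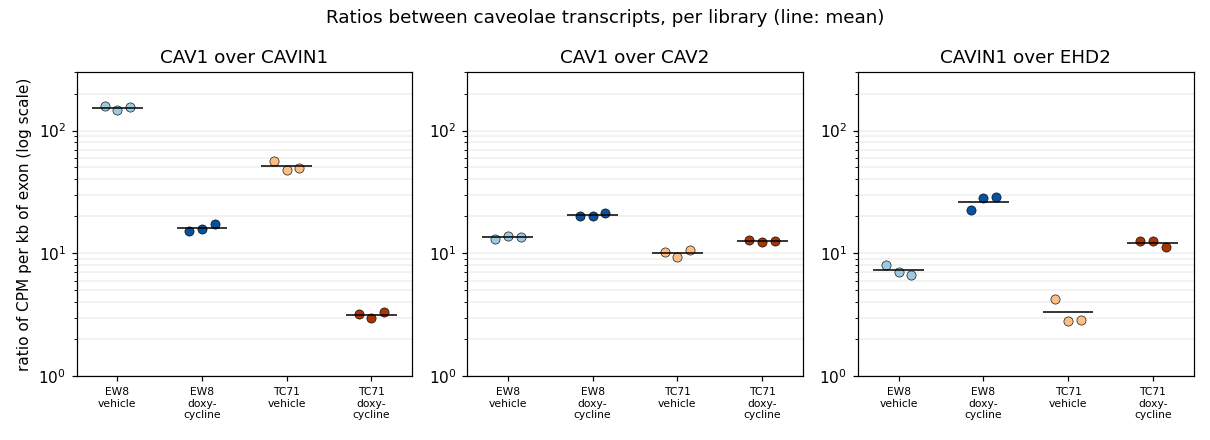
Ratios of CPM per kb of exon between caveolae genes in each library on a log scale, for CAV1 over CAVIN1, CAV1 over CAV2 and CAVIN1 over EHD2, with lines at group means. The mean of CAV1 over CAVIN1 went from 153 to 16 in EW8 and from 51.3 to 3.18 in TC71.

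CAV2 and CAV1 are neighbours, with 16244 bases between the end of one and the start of the other, so the genes within 500 kb of them were also read out. Of 31 genes there, 12 were tested. MET, the receptor of hepatocyte growth factor, starts 147.6 kb after the start of CAV1 and rose from 8.678 ± 1.388 to 270.4 ± 6.342 CPM in EW8 and from 11.47 ± 3.076 to 263.8 ± 9.173 CPM in TC71 (SD, n = 3). Its log2 fold change was 4.97 (SE 0.15, adjusted p = 4.88e-15) and 4.52 (SE 0.14, adjusted p = 9.3e-15). MET passed the fold limit in both lines and the caveolins in neither. TES, a focal adhesion protein's gene on the other side, rose by 0.68 and 0.61, and CAPZA2, an actin capping subunit's gene, changed by 0.13 (adjusted p = 0.0875) and 0.27 (adjusted p = 0.00144). ST7 changed by 0.04 (adjusted p = 0.67) and -0.26 (adjusted p = 0.0058). TFEC, a transcription factor's gene, changed by -0.15 (adjusted p = 0.489) and -0.99 (adjusted p = 0.0802). The low genes ENSG00000243243 and ST7-AS1 had adjusted p-values from 0.0751 to 0.752. Among neighbours of low level, the long non-coding gene ENSG00000237813, which shares 1.1% of the exon bases of CAV2 on the other strand, was called higher in TC71 at 1.68 (SE 0.27, adjusted p = 5.56e-05) with a mean of 2.575 CPM after treatment. ENSG00000237870 was also called higher in TC71 (1.5, adjusted p = 0.0102), and ENSG00000279086 in EW8 (3.40, adjusted p = 6.1e-05).

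**Figure D4:**
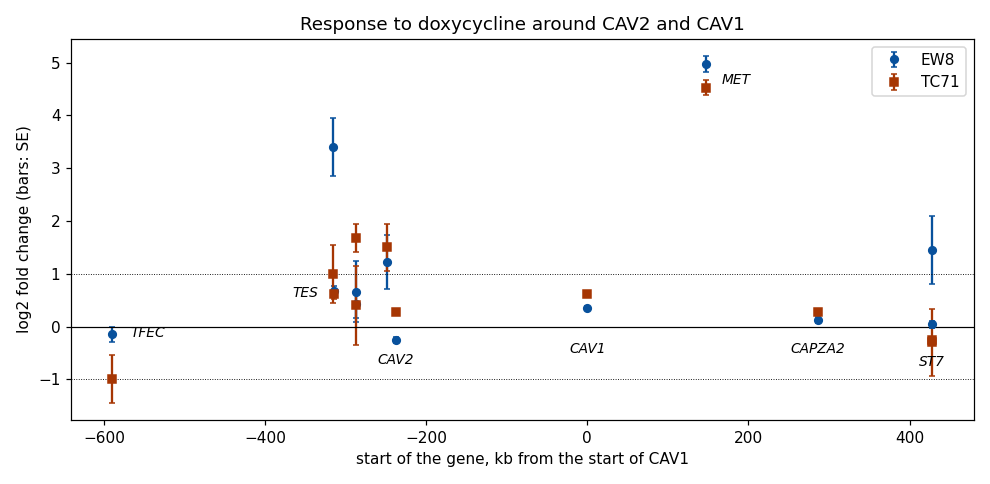
Log2 fold change with doxycycline of the 12 tested genes around CAV2 and CAV1, in EW8 (circles) and TC71 (squares), with SE bars and dotted lines at the fold limit. The x axis is the distance of each gene's lowest coordinate from the start of CAV1 in kb. The axis calls it the start, but for minus-strand genes, such as TFEC and ENSG00000237813, it is the end of the gene. MET lies at 4.97 and 4.52, while CAV1 and CAV2 lie within the limit. The unnamed points are 4 long non-coding genes and 1 gene of unassigned type, all of low level.

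Among other genes known for work at caveolae, EHD1, EHD3, DNM1 and DNM3 were called higher in both lines. Of 12 tested, 5 were called higher and 2 lower in EW8, and 5 higher and 0 lower in TC71 by edgeR and by DESeq2, with medians of 0.50 and 0.44. At an unadjusted p under 0.05, 1 of them was lower in TC71. Shares of all genes called were 11.4% higher and 3.38% lower in EW8, and 12.3% and 3.67% in TC71. EHD1, an EHD2 paralog of endosome recycling, went from a mean of 44.70 CPM to 392.3 in EW8 (3.13 on the log2 scale, adjusted p = 3.07e-15) and from 42.23 CPM to 149.1 in TC71 (1.82, adjusted p = 3.26e-12). Its response was smaller in TC71 by a difference of -1.31 (adjusted p = 2.39e-07). The EHD2 difference had the other sign, at 0.91, but was not called and did not hold up under every alternative. EHD3 rose by 1.11 and 1.47, and EHD4 by 1.03 and 0.57, the latter below the fold limit. DNM1, a dynamin that cuts vesicle necks, rose by 1.33 in EW8 and 3.69 in TC71 (difference 2.36, adjusted p = 5.33e-07), and DNM3 by 2.23 and 1.29. DNM2, the ubiquitous dynamin, had group means between 216.0 and 225.6 CPM and did not pass the test (adjusted p = 0.753 and 0.445). FLNA, the actin cross-linker filamin A that ties caveolae to stress fibres, reached 0.97 in EW8 and 1.38 in TC71. ROR1, a receptor that scaffolds caveolin-1 and cavin-1, was lower by -1.08 in EW8 and -0.71 in TC71. PACSIN1, the neuronal PACSIN, was called lower in EW8 at -1.12 (adjusted p = 0.0425). Without EW8 doxycycline replicate 2 neither it nor ROR1 was called, the count lower in EW8 being 0, and the count was 1 under several other alternatives. CAV3, the muscle caveolin, was not tested.

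Receptors and enzymes reported to reside in caveolae moved in both directions. Beside them, 11.4% of all genes were called higher in EW8 and 12.3% in TC71, and 3.38% and 3.67% lower. In EW8 3 of 16 were called higher and 1 lower, and in TC71 5 higher and 1 lower, with medians of 0.61 and 0.92, or 0.85 in TC71 with genes at the floor set at their bound. EGFR, the EGF receptor, rose from 7.396 to 49.69 CPM in EW8 (2.75, adjusted p = 1.3e-10), and went from 0 counts in every TC71 vehicle library to a mean of 0.3764 CPM. P2RX7, an ATP-gated channel, rose by 1.5 in EW8, where NOS3, the endothelial nitric oxide synthase, reached 1.175 CPM (1.67, adjusted p = 0.0153). ITGB1, the beta-1 integrin, rose from 413.0 to 1212 CPM in TC71 (1.55, adjusted p = 6.78e-14) and EDNRA, an endothelin receptor, by 1.04. CD36 and EDNRB were also called higher in TC71, at means of 1.547 and 0.8792 CPM. EDNRB, like EGFR, was at the floor in TC71 vehicle. PDGFRB, a PDGF receptor, was lower in both lines, by -1.08 and -1.42. Without EW8 doxycycline replicate 3 the EW8 fall of PDGFRB was not called. With at least 10 counts required in every library, 1 of the 16 genes was called higher in each line.

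Coats and scaffolds of other membrane routes were read beside the 11.4% and 12.3% of all genes called higher in EW8 and TC71. The shares called lower were 3.38% and 3.67%. Of 9 flotillin and SPFH-domain genes tested, none was called in EW8 and STOML1 alone in TC71 (1.18, adjusted p = 1.12e-06), with medians of -0.07 and 0.11. DESeq2 also called 0 in EW8, where edgeR at an unadjusted p under 0.05 gave 2 higher and 4 lower. By adjusted p alone 2 rose and 2 fell there, against 21.9% and 22.0% of all genes. FLOT1, flotillin-1, rose by 0.86 and 0.90. Of 20 clathrin coat genes, none was called in EW8, where edgeR at an unadjusted p under 0.05 gave 14 higher and 1 lower. By adjusted p alone 13 of the 20 rose and 1 fell in EW8, beside the same 21.9% and 22.0% of all genes. DESeq2 called 1 higher, and other alternatives with the fold limit gave 0 to 2. In TC71 3 were called higher, AP2M1 (1.01), DAB2 (1.14) and BIN1 (1.26), and AMPH was called lower. AMPH went from a mean of 0.1605 CPM to 0.01593 CPM, at the floor with doxycycline. Without TC71 vehicle replicate 1, 1 was higher and 2 were lower, and without its replicate 2 the fall of AMPH was not called. Medians were 0.26 and 0.40. The lists were not compared with each other by a test.

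**Figure D5:**
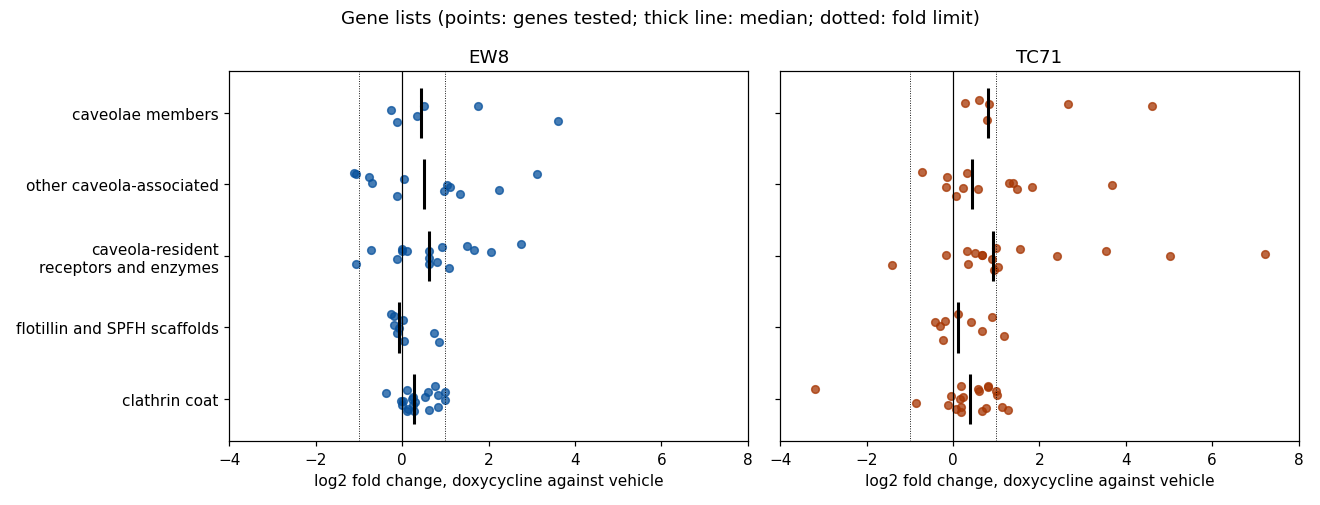
Log2 fold change with doxycycline in EW8 and TC71 for each tested gene of the caveolae group and 4 related lists, with list medians as thick lines and dotted lines at the fold limit. The caveolae genes have medians of 0.42 and 0.81, and all 6 lie above 0 in TC71. There the CAVIN2 point rests on a vehicle group at the floor and did not pass the test (adjusted p = 0.348, edgeR). With CAVIN2 set at its bound the TC71 median is 0.70. The other 4 lists span 0 in both lines.

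Markers of cell types rich in caveolae were read beside these values. Among all genes tested, 11.4% were called higher and 3.38% lower in EW8, and 12.3% and 3.67% in TC71. Of 6 endothelial markers, 4 were called higher in EW8 and 5 in TC71, one of them, TEK, at the floor in both TC71 groups. Their summed level went from 7.868 to 9.371 CPM under vehicle to 48.00 to 53.43 CPM with doxycycline in EW8, and from 2.251 to 2.834 to 10.62 to 12.74 CPM in TC71. PECAM1 made up most of it in EW8, at a mean of 37.47 CPM, while CDH5, the endothelial cadherin, stayed at 0.8728 and 0.6005 CPM. VWF was at the floor in EW8 vehicle, and PECAM1, VWF, CDH5 and TEK were in TC71 vehicle. Of 6 muscle markers 3 were tested, and DES was called higher in both lines. Its mean went from 0.3061 to 4.451 CPM in EW8. In TC71 DES went from 0 counts in every vehicle library to a mean of 0.4458 CPM. MYOG, MYOD1 and CKM were at the floor in every group. Of 5 adipocyte markers, PLIN1 and LPL were tested, with group means of at most 1.647 CPM and no call, and at an unadjusted p under 0.05 edgeR gave 0. ADIPOQ and LEP were at the floor throughout. Of 8 fibroblast markers 1 was called higher and 2 lower in EW8, and 3 higher and 3 lower in TC71. Of those called higher in TC71, COL1A2 and POSTN were at the floor under vehicle and reached means of 0.2505 and 0.1263 CPM. Summed levels of the fibroblast markers were 120.7 to 132.9 and 109.2 to 112.4 CPM in EW8. In TC71 they were 96.85 to 150.0 and 153.2 to 163.9 CPM. The part of the endothelial genes in the caveolae values was not tested.

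Profiles over the 12 libraries were compared within the group. CAV1, CAV2 and CAVIN2, highest in EW8, had Pearson correlations of 0.91 to 0.94 in log2 CPM with each other. CAVIN1 correlated at 0.86 with EHD2 and 0.90 with PACSIN2, and at 0.20 with CAV1. PACSIN2 lay between, at 0.60 with EHD2 and 0.58 with CAV1. The 12 points are 4 groups of 3, and correlations describe the line and treatment steps only. Among 14981 genes with a mean of at least 1 CPM, the profiles most like CAV1 were those of EXOC6B (0.9988), CCDC127 and NLGN2. Those most like CAV2 were KIAA0232 (0.9924), LIMS1 and KDM6A. For CAVIN1 they were ENSG00000231811 (0.9988), FCRLA (0.9987) and MMP12 (0.9972). For CAVIN2 they were SYT3, F2RL2 and KHDRBS3, at 0.9906 to 0.9948. For EHD2 they included DVL1 (0.9944) and RGS10 (0.9917). For PACSIN2 they were TOX2, RGS3 and LARP6, at 0.9913 to 0.9944.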

How the data were processed

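Polyadenylated RNA of 12 samples was made into stranded libraries and sequenced in pairs. The authors checked reads with FastQC, aligned to hg38 with STAR, and counted over GENCODE 29 exons with featureCounts 2.0.1. The authors deposited raw counts for each gene, without normalization. Per the file headers, each mate was counted, strand was not used, and reads on several genes or places were left out. Exon lengths came from the same table. Symbols matched 99.1% of identifiers.

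The test was edgeR 4.0.16 (R 4.3.3) with filterByExpr, TMM scaling, and 1 quasi-likelihood fit of 12 libraries with 4 groups, with Benjamini-Hochberg adjustment over 21013 genes. Calls needed both an adjusted p below 0.05 and a log2 fold change beyond 1 in size, the limits of the study. CPM values use TMM scaling, and errors are SD or SE. A group was at the floor with every library at or under 6 counts (3 read pairs, counting error only). The fit was tested on simulated data. DESeq2 1.42.0, other scalings and filters, halved counts, single-line fits, a replicate block and leaving out each library were alternatives. Dropping the fold limit, which keeps the values of the main fit, was counted among them. The 7 genes, 10 gene lists and tests were chosen with earlier results of these data known. Genes that could be named were all 7 members, list genes called in either line, tested genes within 500 kb of CAV2 and CAV1, and the 3 most similar profiles per gene, of which 1 is not reported here. A few genes that were not called, such as DNM2, FLOT1, CAV3 and markers at the floor, were named after their values were seen. Replicate numbers were not taken as pairs in the main fit.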

Additional observations from a re-analysis of the deposited data

Results flagged for a closer look

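The response to doxycycline differed between the lines, by the test of the difference TC71 minus EW8 in edgeR, for 5 of the 6 genes tested. Of all genes, 12.2% had a difference above 0 by adjusted p alone. On the log2 scale the difference was 1.00 for CAVIN1, 0.91 for EHD2, 0.54 for CAV2, 0.28 for PACSIN2 and 0.25 for CAV1. For CAV2 all 3 treated libraries were below the vehicle libraries in EW8 and above them in TC71. The CAVIN1 and CAV2 differences kept an adjusted p under 0.05 in all 19 alternatives, and those of EHD2, CAV1 and PACSIN2 did not. Groups of 3 libraries were not screened for single outlying values.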

How the results depend on the processing

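No fold change of a caveolae gene turned its direction. Of the fold changes over the alternatives 584 stayed on their side of the call, 13 passed it and 21 no longer did. Of those that passed, only the EHD2 difference without TC71 vehicle replicate 2, at 1.06, came from a new fit. The rest were values of the main fit with the fold limit dropped. Without the fold limit, EW8 had 4 genes called higher and 1 lower, TC71 had 5 higher, and 5 responses were larger in TC71. The matching shares of all genes were 21.9% and 22.0% in EW8, 25.1% in TC71, and 12.2% for the difference. The 1 gene called for a difference of responses, CAVIN1, became 0 with median-ratio size factors, library size alone, no filter, at least 10 counts in every library, DESeq2 or halved counts. Its value had been at the limit itself. Leaving out 1 library in turn gave 0 to 2 genes for that difference and 2 to 3 genes lower in TC71 under vehicle. With at least 10 counts in every library, 1 gene was lower in TC71 than in EW8 under vehicle and 1 with doxycycline, since CAVIN2 could then not be tested and, under vehicle, CAV2 was at -0.99, inside the fold limit. Same-numbered replicates of a line had correlations of -0.113 to 0.096, and those with other numbers -0.17 to 0.149. The numbers thus gave no sign of a pairing, though groups of 3 libraries cannot exclude one. With the replicate number as a block, 2 genes were called higher in EW8, 2 in TC71 and 1 for the difference, 1 higher and 3 lower in TC71 under vehicle, and 2 and 2 with doxycycline. That fit lost 1 of the 2 caveola-associated genes lower in EW8 and put the PACSIN2 difference at an adjusted p of 0.0549. The difference of responses could not be fitted on 1 line alone. CAVIN2 and CAVIN3 had 8 counts or fewer in every TC71 library, too few for a firm fold change there.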
